A study of Mus musculus with 12 samples.

Results

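Gene levels in bone marrow hematopoietic stem cells (HSCs) changed between libraries labelled Runx1 control and knockout in both CD41 gates. The comparison described here asks for which genes the size or direction of that change differed between the gates. It used all 12 of the 12 libraries in the series, in 4 groups of 3, and 19395 of the 35869 genes in the count table passed the low-count filter and were tested. For each gene the log2 fold change of knockout (KO) against control (WT) in CD41pos cells was taken, and the same change in CD41neg cells was subtracted from it. This quantity, the difference of the effects, is above 0 where the ratio of KO to WT was higher in CD41pos cells, through a larger increase there or a larger decrease in CD41neg cells. WT mice had the genotype MxCre1-/-,RUNX1f/f and KO mice MxCre1+/-,RUNX1f/f. Both thus carried floxed Runx1 alleles, both received 4 injections of poly(I:C), and both were sampled 4 weeks after injection. By these labels the groups differed in the Cre transgene and not in the injections. Other differences between their libraries are given below. Flow cytometry split the HSCs into cells with CD41 (CD41pos) and without it (CD41neg). WT libraries are numbered 1, 3 and 4 in CD41pos and 2, 3 and 4 in CD41neg, KO libraries 1, 2 and 3 in both gates, and values are given in these orders. The Mx promoter that drives Cre responds to interferon in many cell types, so recombination was not limited to HSCs. The labels used here state neither the age of the mice nor whether libraries came from separate animals, and the p-values therefore cover only library-to-library spread, part or all of which may be technical.

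RUNX1 is a DNA-binding transcription factor that works with its partner CBFB, is needed for HSCs to form in the embryo, and is needed for the maturation of megakaryocytes, the cells that shed platelets. CD41, the integrin alphaIIb chain encoded by Itga2b, is part of the platelet fibrinogen receptor. HSCs that carry it are known as megakaryocyte-primed or platelet-biased, so the comparison of the gates asks whether RUNX1 loss acts alike on stem cells with and without this priming.

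Each library held 44108035 to 58946457 counts in genes, with 21973 to 27097 genes detected, and levels are given as CPM, counts scaled to the TMM-normalized library size. The gate was visible in Itga2b, at 551 to 683 CPM in CD41pos WT and 49.6 to 138 CPM in CD41neg WT. The HSC markers Kit, Ly6a, Procr and Slamf1 were detected in every library, the lowest value being 6.24 CPM for Procr in CD41pos KO 2. Cd48, which HSCs carry little of, stood at 40.5 to 75.7 CPM in WT and 178 to 229 CPM in KO. Counts summed over the whole Runx1 gene include exons outside any deleted part and cannot check the deletion: Runx1 stood at 65.7 to 159 CPM in WT and 157 to 382 CPM in KO. WT and KO are therefore the genotypes as labelled. CD41pos WT 1 and 4 and CD41neg WT 2 and 4 stood apart from the other 8 libraries, with the immediate early gene Nr4a1 at 18.4 to 27.8 CPM against 236 to 395 CPM and the predicted gene Gm29779 at 239 to 444 CPM against 0.219 to 0.890 CPM. These 4, numbered 1, 2, 5 and 6 in the sample descriptions, are called the low-numbered WT libraries, and WT 3 was the only other control in each gate. Ddx3y, a Y-linked gene, stood at 84.9 to 103 CPM in KO 1 and KO 3 and at 0.154 to 0.163 CPM in KO 2 of both gates, and at 0.0 to 39.1 CPM in WT. Xist, a gene of the inactive X, stood at 0.858 to 1.00 CPM in KO 1 and KO 3. Its level was 306 to 320 CPM in KO 2 and 114 to 321 CPM in WT. WT and KO libraries thus also differed in sex-linked RNA. Their numbers in the sample descriptions ran from 1 to 10 in WT and from 13 to 22 in KO. In these bulk libraries, fewer cells of a type and less RNA per cell cannot be told apart.

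No gene passed the test of the difference of the effects at an adjusted p of 0.05 (edgeR quasi-likelihood test, Benjamini-Hochberg over 19395 genes), a count of 0 (0.0%) with a smallest adjusted p of 0.141. At an unadjusted p under 0.05 there were 1093 genes (5.64%), 579 with a difference above 0 (2.99%) and 514 below 0 (2.65%). At an unadjusted p under 0.001 there were 29 genes, 25 above 0 and 4 below. DESeq2 on the same counts called 72 genes (0.371%), 48 above 0 and 24 below, and all 72 had an unadjusted p under 0.05 in edgeR. Of the 72, 35 reached 10 CPM in at least 1 group and 12 were under 1 CPM in every group.

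**Figure D1:**
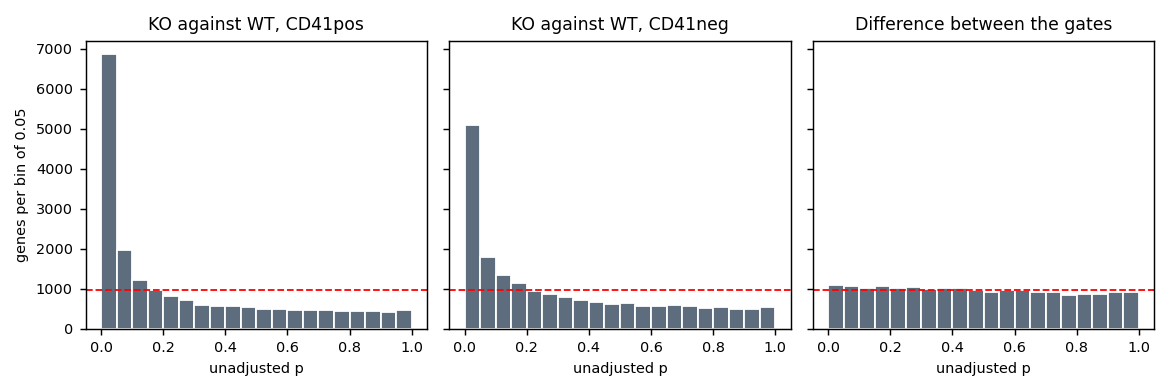
Unadjusted p-values of the 19395 tested genes, counted in bins of 0.05, for KO against WT in CD41pos, KO against WT in CD41neg and the difference of the effects between the gates; the dashed red line is the height that an even spread over all bins would have. The lowest bin stands far above the line in both gates and close to it in the difference, where 1093 genes fell under 0.05.

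The same fit made many calls within the gates. In CD41pos, 3309 genes (17.1%) differed between KO and WT at an adjusted p of 0.05, 1899 higher in KO (9.79%) and 1410 lower (7.27%). In CD41neg, 1517 genes (7.82%) differed, 747 higher in KO (3.85%) and 770 lower (3.97%). The direction of calls depended on the scaling: with upper-quartile scaling 38.5% of the CD41pos calls and 39.8% of the CD41neg calls were higher in KO, against 57.4% and 49.2% with TMM, and the median log2 change of all genes in CD41pos moved from -0.08 to -0.21. For KO against WT in CD41pos, 7639 genes were called without the low-numbered WT libraries and 965 without CD41pos KO 2. For KO against WT in CD41neg, the count ran from 341 without CD41neg KO 3 to 3856 without CD41pos WT 3. Of all calls, 975 genes were called in both gates, 29.5% of the CD41pos calls and 64.3% of the CD41neg calls, with 510 higher in KO in both, 463 lower in both and 2 in opposite directions.

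Most genes called in 1 gate only pointed the same way in the other. Among the 2334 genes called in CD41pos only, 96.2% had an estimate of the same sign in CD41neg, and 366 (15.7%) had an unadjusted p under 0.05 for the difference. Among the 542 called in CD41neg only, 90.4% had the same sign in CD41pos, and 191 (35.2%) had such a p. In the 975 called in both gates it was 47 (4.82%). The difference and the calls come from the same libraries, so these shares are a description and not a test. The share of same signs over all tested genes was not counted, so 96.2% and 90.4% have no baseline here. WT and KO also differed in library numbers and sex-linked RNA in both gates, and the part of this in the shared signs was not tested. Across all tested genes the KO effects in the gates had a Pearson correlation of 0.60 and a Spearman correlation of 0.63. Over the 10785 genes with at least 10 CPM in 1 group the Pearson correlation was 0.83. Both are correlations across genes, which are not independent replicates, and the KO libraries carry the same replicate numbers in both gates.

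The difference rests on 4 group means and is less precise than the effect in either gate. Its median standard error (SE) was 0.41 on the log2 scale, against 0.29 in each gate, and 0.27 over genes of at least 10 CPM. The median 95% interval reached 0.88 to each side of the estimate. It lay wholly within -1 to 1 for 7731 genes (39.9%), among them 557 of the 975 genes called in both gates (57.1%), 1096 of the 2334 called in CD41pos only and 167 of the 542 called in CD41neg only. For the other genes a difference of log2 1 in at least 1 direction lay inside the interval or beyond it.

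**Figure D2:**
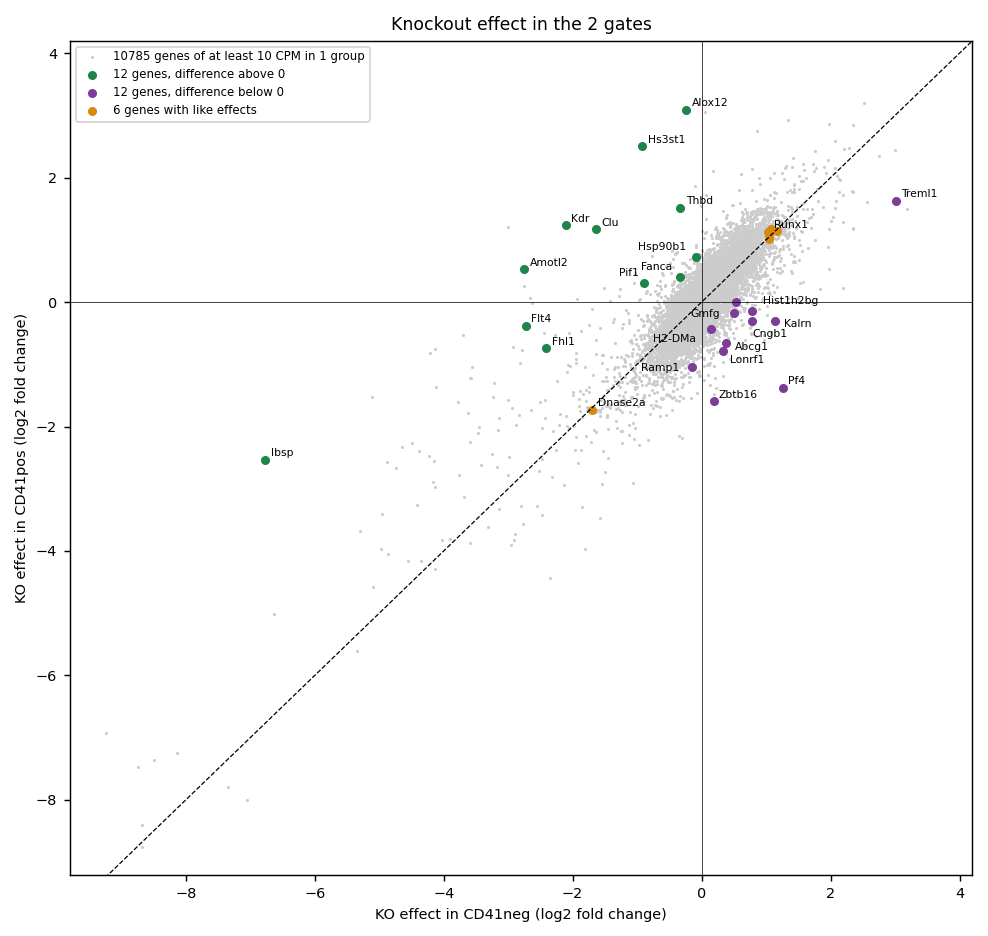
KO effect in CD41neg (x axis) and in CD41pos (y axis), both as log2 fold changes, for the 10785 genes of at least 10 CPM in 1 group; the dashed line marks equal effects. Green and purple points are the 12 genes on each side with the smallest p for the difference, orange points the 6 genes with the narrowest interval among like effects, and most genes lie along the dashed line (Pearson correlation 0.83 across genes).

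The rule for named genes required a passed test of the difference and found none. The 12 genes on each side with the smallest p and at least 10 CPM in 1 group were chosen after their values were seen, and they are given as the extremes of the table and not as calls. Their difference kept its sign in all of the alternatives run. These reused the libraries by which the genes were chosen, in whole or in part, so the kept signs are no independent support. DESeq2 called 19 of the 24, and 17 passed without the low-numbered WT libraries, which leaves 1 control in each gate; none passed with a term for those libraries or without WT 3 of both gates. Of the 12 above 0, 6 rose and 1 fell in CD41pos KO and 7 fell in CD41neg KO. Of the 12 below 0, 1 rose and 6 fell in CD41pos KO and 6 rose in CD41neg KO.

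Hs3st1, which encodes a heparan sulfate sulfotransferase that makes the antithrombin-binding site, had the smallest p among these genes. It stood at 7.66, 9.04 and 7.92 CPM in CD41pos WT and 40.2, 50.1 and 49.5 CPM in CD41pos KO. In CD41neg it stood at 3.55, 3.09 and 5.91 CPM in WT and 3.14, 0.929 and 2.58 CPM in KO. The CD41pos groups were far apart and the CD41neg groups overlapped. Hs3st1 rose in CD41pos KO by a log2 fold change of 2.51 ± 0.37 (SE, n = 3 and 3, edgeR adjusted p = 0.00293), and its change in CD41neg was -0.92 ± 0.37 (adjusted p = 0.138). The difference of the effects was 3.42 ± 0.52, with a 95% interval of 2.29 to 4.56 (unadjusted p = 2.39e-05, edgeR adjusted p = 0.155). Over 32 alternatives the adjusted p ran from 4.75e-08 to 0.874 and passed 0.05 in 6. The gene spans 39613935 to 39755475 on chromosome 5, minus strand, in GENCODE vM21 on GRCm38 (mm10), the source of all gene spans below.

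The promoters of Hs3st1 and of the platelet chemokine gene Pf4, described further on, are shown because these genes had the smallest p on either side among genes of at least 10 CPM in 1 group and changed in opposite directions in CD41pos KO. Each window runs from 250 bases before to 50 bases after the RefSeq start (GRCm38.p6), 5′ to 3′ on the strand of the gene: chr5:39644582-39644881, minus strand, for Hs3st1 and chr5:90772185-90772484, plus strand, for Pf4. Capitals mark a match to the RUNX core motif, searched as TGTGGT and TGCGGT on both strands.
Hs3st1: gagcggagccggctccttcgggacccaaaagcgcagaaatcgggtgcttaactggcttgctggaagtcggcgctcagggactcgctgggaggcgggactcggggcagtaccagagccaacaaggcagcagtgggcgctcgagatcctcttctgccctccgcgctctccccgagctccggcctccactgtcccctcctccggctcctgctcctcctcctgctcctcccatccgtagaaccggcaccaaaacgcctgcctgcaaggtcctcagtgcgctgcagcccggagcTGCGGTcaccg
Pf4: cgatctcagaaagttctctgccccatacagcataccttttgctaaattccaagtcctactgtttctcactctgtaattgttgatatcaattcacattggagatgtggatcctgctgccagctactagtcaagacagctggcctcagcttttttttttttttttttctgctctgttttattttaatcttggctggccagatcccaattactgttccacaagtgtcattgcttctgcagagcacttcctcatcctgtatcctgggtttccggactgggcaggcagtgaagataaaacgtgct
The Hs3st1 window holds 1 match, TGCGGT, which begins 39 bases after the RefSeq start; the GENCODE span of the gene extends further upstream. The windows of Pf4, Alox12 and Treml1 hold no match, which says only that these letters are not in these 300 bases. Of 32851 promoters of this length, 22.4% hold a match, as do 21.4% of the 17289 promoters of tested genes. Binding was not measured in these libraries.

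Thbd encodes thrombomodulin, the thrombin receptor that activates protein C. It stood at 25.7, 16.8 and 21.3 CPM in CD41pos WT and 61.1, 60.9 and 59.8 CPM in CD41pos KO, and at 16.9, 27.5 and 26.8 CPM in CD41neg WT and 23.7, 17.0 and 15.9 CPM in CD41neg KO. Only the CD41pos groups were apart. Thbd rose in CD41pos KO (1.51 ± 0.23, edgeR adjusted p = 0.0030), and in CD41neg its change was -0.33 ± 0.22 (adjusted p = 0.37). Its difference was 1.84 ± 0.32 (adjusted p = 0.328, 0.000144 to 1.0 over the alternatives). Thbd is a gene without introns on chromosome 2, 148404466 to 148408188, minus strand.

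Alox12, the platelet 12-lipoxygenase, which oxidizes arachidonic acid, stood at 4.82, 2.29 and 2.32 CPM in CD41pos WT and 26.1, 30.2 and 24.4 CPM in CD41pos KO. In CD41neg it stood at 3.55, 0.931 and 2.605 CPM in WT and 2.70, 2.37 and 0.935 CPM in KO. All CD41pos KO libraries lay above all other libraries, and the CD41neg groups overlapped. Alox12 rose in CD41pos KO (3.09 ± 0.51, edgeR adjusted p = 0.00392), in CD41neg its change was -0.24 ± 0.48 (adjusted p = 0.789), and its difference was 3.33 ± 0.69 (adjusted p = 0.515, 0.00119 to 1.0 over the alternatives). The gene lies on chromosome 11, 70241457 to 70255353, minus strand.

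Clu encodes clusterin, a secreted chaperone that platelets store. Its CPM values were 44.4, 40.4 and 45.5 in CD41pos WT, 77.2, 120.2 and 96.2 in CD41pos KO, 8.03, 11.1 and 8.31 in CD41neg WT and 5.31, 1.22 and 2.30 in CD41neg KO. The groups did not overlap in either gate, with KO higher in CD41pos and lower in CD41neg. Clu rose in CD41pos KO (1.17 ± 0.37, edgeR adjusted p = 0.0499) and fell in CD41neg KO (-1.64 ± 0.39, adjusted p = 0.029). Its difference was 2.81 ± 0.54 (adjusted p = 0.452, 0.000404 to 1.0 over the alternatives), and the call of the difference was made without CD41neg KO 1. The gene lies on chromosome 14, 65968483 to 65981547, plus strand.

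Lifr, which encodes the receptor of leukemia inhibitory factor, was the other gene called in opposite directions, at levels under 10 CPM. It stood at 2.64, 1.20 and 0.857 CPM in CD41pos WT and 3.06, 9.66 and 4.65 CPM in CD41pos KO, and at 5.32, 2.50 and 4.88 CPM in CD41neg WT and 0.647, 0.808 and 1.31 CPM in CD41neg KO. Lifr rose in CD41pos KO (1.88 ± 0.53, edgeR adjusted p = 0.0316) and fell in CD41neg KO (-2.20 ± 0.54, adjusted p = 0.032), and its difference was 4.08 ± 0.76 (adjusted p = 0.452, 0.00016 to 1.0 over the alternatives). In all, 73 genes (0.376%) had WT and KO libraries that did not overlap in either gate and lay in opposite order, 35 with KO higher in CD41pos and 38 with KO higher in CD41neg. Libraries did not overlap in 44.3% of genes in CD41pos and 35.5% in CD41neg.

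**Figure D3:**
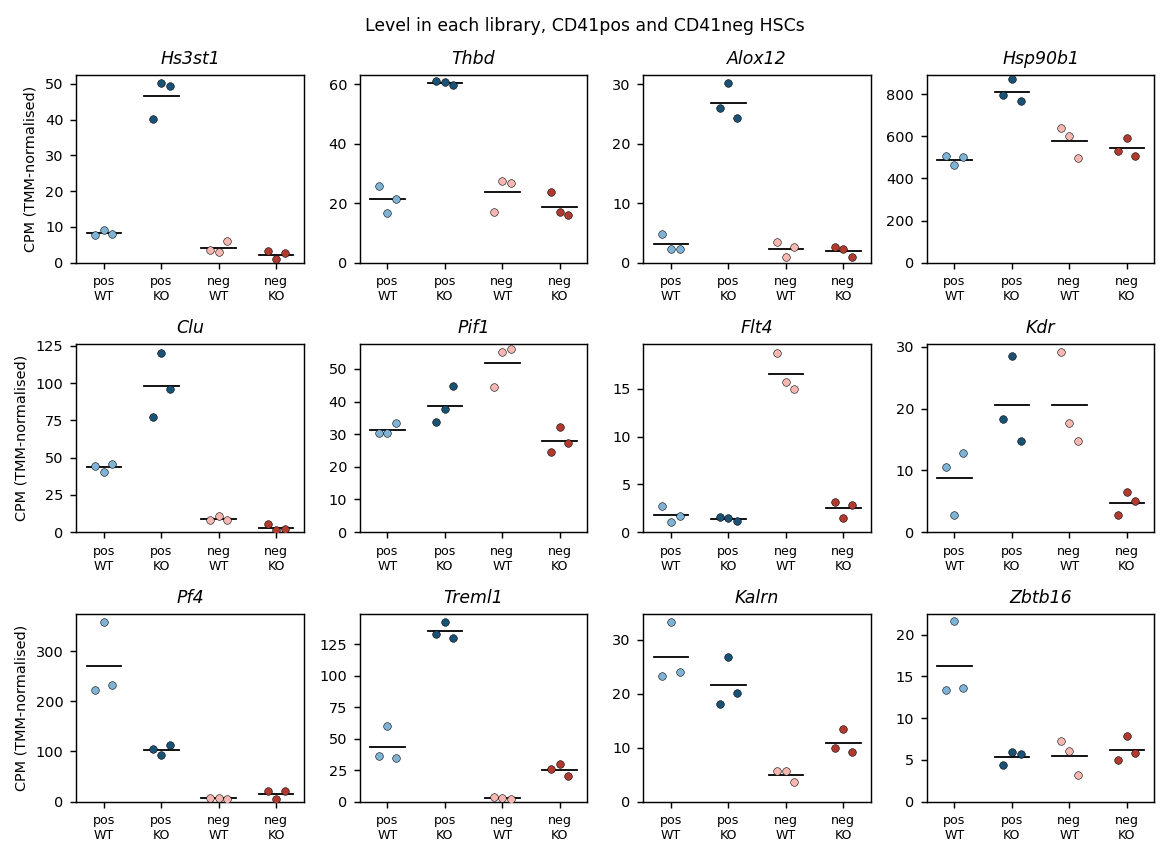
CPM after TMM normalization (linear y axis from 0) in each of the 12 libraries for 12 genes named in the text; points are libraries, coloured by group, and the line is the group mean. Hs3st1, Thbd and Alox12 are high in the 3 CD41pos KO libraries alone, Flt4 in the 3 CD41neg WT libraries alone, and Pf4 in the CD41pos WT libraries.

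Hsp90b1, Pif1 and Fanca were also among the 12 genes above 0. Hsp90b1, the chaperone GRP94 of the endoplasmic reticulum, stood at 505, 463 and 502 CPM in CD41pos WT and 795, 873 and 768 CPM in CD41pos KO. Its CD41neg levels were 638, 601 and 496 CPM in WT and 529.8, 590.3 and 509 CPM in KO. The CD41pos KO libraries were above all others. Hsp90b1 rose in CD41pos KO (0.73 ± 0.11, edgeR adjusted p = 0.00342), and in CD41neg its change was -0.09 ± 0.11 with an interval of -0.34 to 0.15. Its difference was 0.82 ± 0.16 (adjusted p = 0.452, 0.00579 to 1.0 over the alternatives).

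Pif1, a DNA helicase that unwinds G-quadruplexes, and Fanca, a subunit of the Fanconi anemia core complex for repair of DNA crosslinks, had KO libraries above WT in CD41pos and below WT in CD41neg. Pif1 stood at 30.3, 30.2 and 33.3 CPM in CD41pos WT, 33.7, 37.6 and 44.7 CPM in CD41pos KO, 44.5, 55.2 and 56.0 CPM in CD41neg WT and 24.7, 32.3 and 27.2 CPM in CD41neg KO. Pif1 fell in CD41neg KO (-0.89 ± 0.16, edgeR adjusted p = 0.00969), its CD41pos change of 0.30 ± 0.16 did not pass (adjusted p = 0.189), and its difference was 1.19 ± 0.23 (adjusted p = 0.452). Fanca stood at 61.3, 59.6 and 64.7 CPM in CD41pos WT, 73.8, 85.1 and 85.8 CPM in CD41pos KO, 85.0, 93.8 and 87.5 CPM in CD41neg WT and 71.5, 73.0 and 67.8 CPM in CD41neg KO. For this gene it was the CD41pos change that passed (0.40 ± 0.11, adjusted p = 0.0274), with -0.33 ± 0.11 in CD41neg (adjusted p = 0.0807) and a difference of 0.73 ± 0.15 (adjusted p = 0.515).

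Flt4 and Kdr were the vascular receptor genes among the 12 above 0. Flt4, the lymphatic and sinusoidal endothelial receptor VEGFR3, stood at 18.8, 15.8 and 14.97 CPM in CD41neg WT and between 1.07 and 3.16 CPM in the other 9 libraries. It fell in CD41neg KO (-2.73 ± 0.37, edgeR adjusted p = 0.00304), its change in CD41pos was -0.38 ± 0.35 (adjusted p = 0.468), and its difference was 2.35 ± 0.50 (adjusted p = 0.515, 0.00276 to 1.0 over the alternatives). Kdr, the endothelial receptor VEGFR2, stood at 10.5, 2.77 and 12.8 CPM in CD41pos WT, 18.3, 28.5 and 14.7 CPM in CD41pos KO, 29.1, 17.7 and 14.8 CPM in CD41neg WT and 2.84, 6.47 and 4.98 CPM in CD41neg KO. Kdr fell in CD41neg KO (-2.11 ± 0.51, adjusted p = 0.0297), its CD41pos change of 1.23 ± 0.49 did not pass (adjusted p = 0.0976), and its difference was 3.34 ± 0.71 (adjusted p = 0.515). The lowest CD41pos WT value of Kdr was WT 3, and the difference was 4.86 with WT 3 as the only control of each gate and 3.04 without it.

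Some other genes of marrow sinusoids and of pericytes were high in the CD41neg WT libraries alone, as Flt4 was. These genes were singled out after their values were seen. Stab2, the hyaluronan scavenger receptor of sinusoidal endothelium, stood at 29.9, 24.6 and 28.1 CPM in CD41neg WT and 1.896 to 6.17 CPM elsewhere, with a difference of 2.63 ± 0.64 (edgeR adjusted p = 0.608). Gpr182, an atypical chemokine receptor of the same endothelium, stood at 8.71, 11.1 and 10.3 CPM in CD41neg WT and 0.585 to 3.72 CPM elsewhere, with a difference of 2.37 ± 0.61 (adjusted p = 0.663). Abcc9, a potassium channel subunit of pericytes, stood at 12.3, 8.45 and 10.3 CPM in CD41neg WT and 0.706 to 2.64 CPM elsewhere, with a difference of 3.01 ± 0.70 (adjusted p = 0.589). Stab2, Gpr182 and Abcc9 fell in CD41neg KO (adjusted p = 0.00904, 0.00254 and 0.0104), and none passed in CD41pos. The CD41pos estimate of Gpr182 was -1.22 ± 0.44 (edgeR adjusted p = 0.0715), with KO below WT without overlap. Stab1, also of sinusoids and singled out likewise, was not high in CD41neg WT alone. It stood at 16.9, 30.1 and 14.6 CPM in CD41pos WT and 23.0, 33.1 and 32.0 CPM in CD41neg WT. Stab1 fell in both gates (edgeR adjusted p = 0.0436 and 0.00602), with a difference of 0.80 ± 0.36 (adjusted p = 0.881). Cdh5, the junction cadherin that defines endothelium, was at 2.85, 4.84 and 6.76 CPM in CD41neg WT and at most 1.59 CPM elsewhere. Its changes were -1.97 ± 0.79 in CD41pos and -3.53 ± 0.81 in CD41neg (edgeR adjusted p = 0.0996 and 0.0237). The difference of 1.56 ± 1.09 had an interval of -0.81 to 3.92, which holds 0.

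Of 24 endothelial and stromal markers, 18 had a difference above 0, with a median of 0.94 against -0.02 over all genes. In CD41pos KO 1 of the 24 rose and 10 fell (9.79% and 7.27% of all genes), in CD41neg KO none rose and 13 fell (3.85% and 3.97%), and 6 had an unadjusted p under 0.05 for the difference, all above 0. The median KO effect was -1.94 in CD41pos and -3.42 in CD41neg. Their summed level ran from 713 to 928 CPM in CD41pos WT, 537 to 585 CPM in CD41pos KO, 548 to 1310.3 CPM in CD41neg WT and 320 to 501 CPM in CD41neg KO. None of the 24 was at 0 in all libraries of a group. Under 1 CPM in all libraries of the group were 9 in CD41pos KO and 10 in CD41neg KO, against 0 in either WT group. The median effects thus rest in part on KO values near the floor. Cxcl12, the chemokine of marrow stroma that retains HSCs, fell from 90.3 to 9.43 CPM in CD41pos and from 103 to 4.83 CPM in CD41neg (adjusted p = 0.0015 and 0.000409), with a difference of 1.15 ± 0.48 (edgeR adjusted p = 0.861). The part of endothelial and stromal RNA in the differences of Flt4, Kdr and the genes named with them was not tested.

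Fhl1, Ibsp and Amotl2 had lower KO to WT ratios in CD41neg than in CD41pos by their estimates. Fhl1, a LIM-domain protein of muscle encoded on chromosome X, stood at 39.9, 25.4 and 42.0 CPM in CD41pos WT, 21.2, 22.3 and 20.7 CPM in CD41pos KO, 11.8, 12.3 and 12.2 CPM in CD41neg WT and 2.68, 1.43 and 2.72 CPM in CD41neg KO. It fell in CD41neg KO (-2.41 ± 0.26, edgeR adjusted p = 0.00107), the CD41pos change was -0.74 ± 0.25 (adjusted p = 0.0567), and the difference was 1.67 ± 0.35 (adjusted p = 0.515). Ibsp, a bone matrix sialoprotein, stood at 18.0, 14.3 and 8.87 CPM in CD41pos WT and 1.66, 0.914 and 4.53 CPM in CD41pos KO, and at 26.4, 12.9 and 9.30 CPM in CD41neg WT and 0.314, 0.0344 and 0.102 CPM in CD41neg KO. It fell in both gates (-2.53 ± 0.64 and -6.77 ± 0.82, adjusted p = 0.0215 and 0.00187), with a difference of 4.23 ± 0.97 (adjusted p = 0.589). Amotl2, an angiomotin-like scaffold of cell junctions, fell in CD41neg KO from 7.14 to 1.06 CPM (-2.75 ± 0.55, adjusted p = 0.0145), changed by 0.53 ± 0.51 in CD41pos (adjusted p = 0.482), and had a difference of 3.28 ± 0.75 (adjusted p = 0.589).

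On the other side, Pf4, which encodes platelet factor 4, a chemokine of megakaryocyte granules, had the smallest p of the 12. It stood at 222, 357 and 232 CPM in CD41pos WT and 105, 93.5 and 113 CPM in CD41pos KO. In CD41neg it stood at 7.80, 7.88 and 4.47 CPM in WT and 22.1, 5.40 and 20.8 CPM in KO. All CD41pos KO libraries lay below CD41pos WT, whereas in CD41neg KO 1 and KO 3 lay above WT and KO 2 within it. Pf4 fell in CD41pos KO (-1.38 ± 0.41, edgeR adjusted p = 0.0372), its CD41neg change of 1.26 ± 0.42 did not pass (adjusted p = 0.0808), and the difference was -2.64 ± 0.58 with an interval of -3.90 to -1.38 (unadjusted p = 0.000634, adjusted p = 0.585). The adjusted p ran from 0.00419 to 1.0 over the alternatives and passed without CD41neg KO 2, where the difference was -3.05. Pf4 lies on chromosome 5, 90772435 to 90773383, plus strand.

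Treml1, a receptor of platelet alpha granules, rose in both gates. It stood at 36.1, 59.9 and 35.1 CPM in CD41pos WT and 133, 142 and 130.05 CPM in CD41pos KO, and at 3.98, 3.25 and 2.11 CPM in CD41neg WT and 25.7, 29.6 and 20.05 CPM in CD41neg KO. KO lay above WT in both gates without overlap. The log2 fold changes were 1.63 ± 0.25 in CD41pos and 3.01 ± 0.27 in CD41neg (edgeR adjusted p = 0.00323 and 0.000409), which gives a difference of -1.38 ± 0.35 (adjusted p = 0.663, 0.00904 to 1.0 over the alternatives). In CPM the order was the other way, since the group means rose by 91.6 CPM in CD41pos and by 22.0 CPM in CD41neg. Such a change of sign between ratios and CPM was found in 2 of the 24 genes and in 18 of the 1093 genes with an unadjusted p under 0.05. Treml1 lies on chromosome 17, 48359916 to 48367176, plus strand.

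Other genes below 0 either rose in CD41neg KO or fell in CD41pos KO. Kalrn, a guanine nucleotide exchange factor for small GTPases, rose in CD41neg KO from 5.65, 5.63 and 3.58 CPM to 9.90, 13.4 and 9.27 CPM (1.13 ± 0.25, edgeR adjusted p = 0.0221), and in CD41pos its WT and KO libraries overlapped at 18.1 to 33.3 CPM. Gmfg, an actin-remodelling protein of blood cells, rose in CD41neg KO (0.50 ± 0.11, adjusted p = 0.0218), and so did the histone gene Hist1h2bg (0.78 ± 0.16, adjusted p = 0.015) and the cyclic nucleotide-gated channel gene Cngb1 (0.79 ± 0.21, adjusted p = 0.0404). Histone genes of this cluster are near-identical, so the counts of Hist1h2bg are uncertain. The CD41pos changes of Kalrn, Gmfg, Hist1h2bg and Cngb1 were -0.31, -0.18, -0.14 and -0.30, none of which passed.

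Zbtb16, the zinc finger transcription factor PLZF, stood at 13.4, 21.6 and 13.6 CPM in CD41pos WT and 4.41, 5.95 and 5.70 CPM in CD41pos KO, and its CD41neg libraries overlapped at 3.16 to 7.89 CPM. It fell in CD41pos KO (-1.59 ± 0.33, edgeR adjusted p = 0.00925) to values within the range of CD41neg cells, and its difference was -1.78 ± 0.45 (adjusted p = 0.663). Ramp1, a coreceptor for the neuropeptide CGRP, fell in CD41pos KO from 187, 225 and 160.5 CPM to 107, 76.2 and 94.3 CPM (-1.04 ± 0.17, adjusted p = 0.00398), with a CD41neg change of -0.15 ± 0.17. Abcg1, a cholesterol exporter, fell in CD41pos KO (-0.65 ± 0.18, adjusted p = 0.0297), as did Lonrf1, a RING finger protein (-0.78 ± 0.20, adjusted p = 0.0242), and H2-DMa, a chaperone of peptide loading on MHC class II (-0.44 ± 0.11, adjusted p = 0.0204). The CD41neg changes of Abcg1, Lonrf1 and H2-DMa were 0.38, 0.33 and 0.15, none of which passed.

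**Figure D4:**
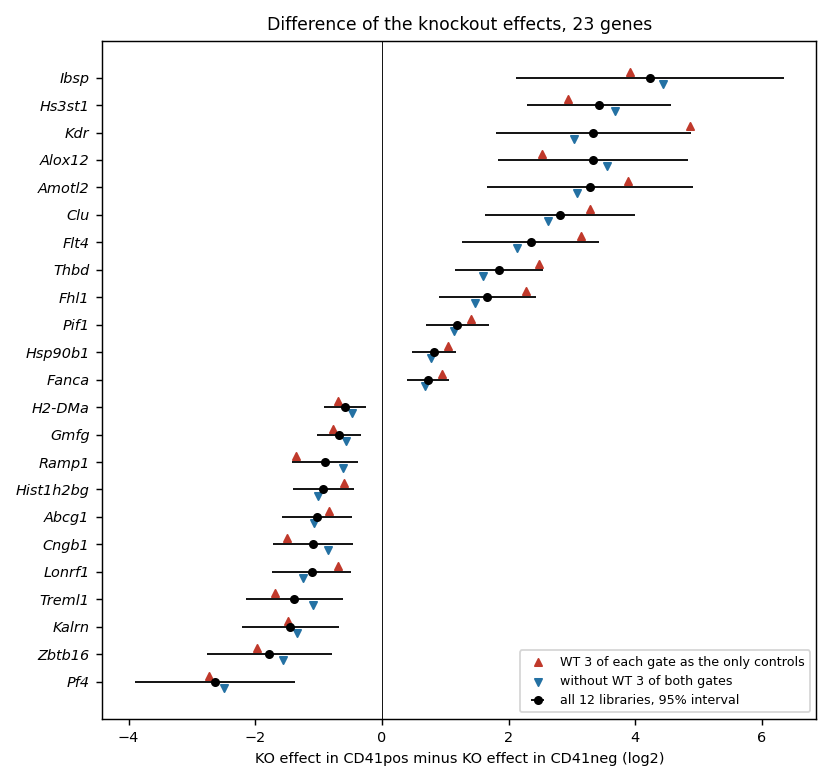
Difference of the effects (log2, x axis) of 23 of the 24 genes with the smallest p; black points with bars give the estimate and its 95% interval from all 12 libraries, red triangles the estimate with WT 3 of each gate as the only controls, and blue triangles the estimate without WT 3 of both gates. All 3 estimates lie on the same side of 0 for each gene, from -2.64 for Pf4 to 4.23 for Ibsp with all libraries. The genes were chosen by p in these same libraries, so the shared side is no independent support.

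At the other end stood genes with large and like effects. A rule asking for a change of at least log2 1 in the same direction in both gates, each passed, with at least 10 CPM in 1 group and an interval of the difference within -1 to 1, was met by 72 genes, and the 6 with the narrowest interval were Runx1, Elf1, Prkca, Srgap2, Dach1 and Dnase2a. Runx1 stood at 159, 141 and 147 CPM in CD41pos WT and 270.4, 382 and 325 CPM in CD41pos KO, and at 84.0, 90.5 and 65.7 CPM in CD41neg WT and 171, 157 and 163 CPM in CD41neg KO. KO lay above WT in both gates, by 1.13 ± 0.15 and 1.03 ± 0.15 (edgeR adjusted p = 0.00201 and 0.00368), and the difference was 0.09 ± 0.21 with an interval of -0.36 to 0.54. Elf1, an ETS factor of blood cells, rose by 1.01 ± 0.14 in CD41pos KO and 1.04 ± 0.14 in CD41neg KO (difference interval -0.45 to 0.38). Dnase2a, the lysosomal DNase that clears DNA of engulfed nuclei, fell in both gates (-1.74 ± 0.16 and -1.70 ± 0.16, interval of the difference -0.52 to 0.44); its levels were 33.9, 42.5 and 32.5 CPM in CD41pos WT, 11.4, 10.3 and 11.0 CPM in CD41pos KO, 37.1, 42.9 and 37.0 CPM in CD41neg WT and 13.1, 12.004 and 11.0 CPM in CD41neg KO. For Prkca, a protein kinase C, Srgap2, a GTPase-activating protein, and Dach1, a transcriptional cofactor, the intervals were -0.41 to 0.49, -0.49 to 0.44 and -0.38 to 0.56. Within this fit the intervals, chosen as the narrowest, bound how far the effects could differ and do not show that they were equal. The differences moved without the low-numbered WT libraries, which leaves 1 control in each gate. They were then 0.43 for Runx1, 0.37 for Elf1, 0.35 for Prkca, 0.43 for Dach1 and -0.05 for Dnase2a. For Srgap2 the value was 0.48, outside its interval.

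The other genes of the RUNX complex gave no call of the difference. Runx3 rose in both gates (0.40 ± 0.12 and 0.52 ± 0.13, edgeR adjusted p = 0.0457 and 0.030; difference -0.12 ± 0.18, a value whose sign changed without CD41pos WT 3). Runx2 changed by -0.09 ± 0.25 in CD41pos and 0.48 ± 0.25 in CD41neg, and neither passed. Of the 16 genes of the RUNX family, CBFB and corepressors, 5 rose and 1 fell in CD41pos KO (9.79% and 7.27% of all genes), 3 rose in CD41neg KO (3.85%), none had an unadjusted p under 0.05 for the difference, and 13 had an interval within -1 to 1.

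Itga2b, which encodes CD41 itself, stood at 628, 551 and 683 CPM in CD41pos WT and 1028, 1268 and 1058 CPM in CD41pos KO, and at 122, 138 and 49.6 CPM in CD41neg WT and 270.1, 257 and 213 CPM in CD41neg KO. KO lay above WT without overlap in both gates. Itga2b rose in CD41neg KO (1.26 ± 0.28, edgeR adjusted p = 0.0223), and its CD41pos change of 0.85 ± 0.28 missed the threshold (adjusted p = 0.0547). The difference was -0.41 ± 0.39 (interval -1.26 to 0.44) and became 0.26 without the low-numbered WT libraries. The gates were drawn on the protein of this gene, so its level between gates is no finding.

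Among 40 megakaryocyte and platelet genes, 10 rose and 3 fell in CD41pos KO (9.79% and 7.27% of all genes), 5 rose and 3 fell in CD41neg KO (3.85% and 3.97%), and 24 had a difference above 0 (9314 of 19395 over all genes), with a median of 0.20. At an unadjusted p under 0.05, 5 had a difference above 0 and 4 below. The median depended on the controls. It was 0.05 without WT 3 of both gates, with 21 of the 40 above 0. Without the low-numbered WT libraries it was 0.50, with 28 above 0. P2ry1, an ADP receptor of platelets, rose in CD41pos KO from 40.8 to 142 CPM (1.80 ± 0.25, edgeR adjusted p = 0.00226) and changed by 0.57 ± 0.24 in CD41neg (adjusted p = 0.157). Thbs1, thrombospondin 1 of platelet alpha granules, stood at 64.7, 4.88 and 14.9 CPM in CD41pos WT and 159.9, 344 and 203 CPM in CD41pos KO, and at 11.9, 8.63 and 37.6 CPM in CD41neg WT and 14.6, 31.8 and 13.9 CPM in CD41neg KO. Its WT libraries were widely spread, and its difference was 3.01 ± 1.10 (adjusted p = 0.838). Thbs1 was called with a block for the replicate number within genotype. Vwf, Selp and Gp1bb, other genes of this lineage, passed in neither gate, with differences of 0.95 ± 0.66, -0.49 ± 0.52 and -0.77 ± 0.52.

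Plek and Podxl were called in both gates. Plek, pleckstrin, a protein kinase C substrate of platelets, rose in CD41pos KO (1.61 ± 0.38, edgeR adjusted p = 0.0169) and in CD41neg KO (2.56 ± 0.40, adjusted p = 0.00528), with a difference of -0.96 ± 0.53 that became 0.22 without the low-numbered WT libraries. Podxl, a sialomucin of the CD34 family, stood at 29.0, 34.1 and 20.7 CPM in CD41pos WT and 171, 257 and 208 CPM in CD41pos KO, and at 9.43, 19.9 and 11.0 CPM in CD41neg WT and 31.4, 44.4 and 26.3 CPM in CD41neg KO. It rose in both gates (2.92 ± 0.31 and 1.34 ± 0.30, adjusted p = 0.000935 and 0.0218), with a difference of 1.59 ± 0.41 (adjusted p = 0.663). Of the SLAM receptors, Slamf1 and Cd48 rose in both gates, with differences of -0.08 ± 0.30 and 0.03 ± 0.23.

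All 27 mitosis genes tested had a difference above 0, with a median of 0.41 against -0.02 over all genes; 23 were above 0 with upper-quartile scaling and 23 without the low-numbered WT libraries. In CD41pos KO 17 of the 27 rose and none fell (9.79% and 7.27% of all genes), in CD41neg KO 2 rose and none fell (3.85% and 3.97%), and the median effects were 0.64 and 0.23. For the difference 11 of 27 had an unadjusted p under 0.05, and none passed the adjusted threshold. Mki67, a marker of cycling cells, stood at 199, 236 and 249 CPM in CD41pos WT and 459.6, 448 and 479 CPM in CD41pos KO, and at 241, 238 and 299 CPM in CD41neg WT and 329, 421 and 346 CPM in CD41neg KO. It rose in both gates (1.02 ± 0.13 and 0.50 ± 0.13, edgeR adjusted p = 0.00201 and 0.0426), with a difference of 0.52 ± 0.19. Top2a, the topoisomerase of dividing cells, also rose in both (1.12 ± 0.13 and 0.67 ± 0.13, adjusted p = 0.00185 and 0.0142; difference 0.45 ± 0.19). Bub1, a kinase of the spindle checkpoint, had the smallest p of the list, with 0.57 ± 0.23 in CD41pos, -0.44 ± 0.23 in CD41neg and a difference of 1.02 ± 0.33, and passed in neither gate. Averaged over the 27 genes, the log2 CPM ran from 6.94 to 7.15 in CD41pos WT, 7.55 to 7.61 in CD41pos KO, 6.95 to 7.17 in CD41neg WT and 7.07 to 7.41 in CD41neg KO. These genes are expressed together in dividing cells, so their common sign is not a set of independent observations.

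DNA replication genes followed with smaller values. Of 27, 22 had a difference above 0 (17 with upper-quartile scaling and 17 without the low-numbered WT libraries), with a median of 0.19; 11 rose in CD41pos KO (9.79% of all genes), 1 rose in CD41neg KO (3.85%) and none fell; with a term for the low-numbered WT libraries 4 fell in CD41pos KO and 1 in CD41neg KO. Mcm10, an initiation factor, rose in CD41pos KO (0.73 ± 0.14, edgeR adjusted p = 0.00743) and changed by 0.10 ± 0.14 in CD41neg, with a difference of 0.64 ± 0.20 (adjusted p = 0.735). Mcm2, a subunit of the replicative helicase, rose in CD41pos KO from 484 to 680.3 CPM (0.49 ± 0.11, adjusted p = 0.0149) and changed by 0.16 ± 0.11 in CD41neg.

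Of 24 ER chaperone and unfolded protein response genes, 18 had a difference above 0, with a median of 0.26, and 8 of these had an unadjusted p under 0.05. In CD41pos KO 6 rose and none fell (9.79% and 7.27% of all genes), and in CD41neg KO none rose and 1, Xbp1, fell (3.85% and 3.97%). Besides Hsp90b1, the chaperone Hspa5 (BiP) rose in CD41pos KO (0.52 ± 0.14, edgeR adjusted p = 0.0281; CD41neg 0.00 ± 0.14), and the lectin chaperone Canx rose likewise (0.64 ± 0.12, adjusted p = 0.00599; CD41neg 0.13 ± 0.12). Pdia4, a disulfide isomerase, stood at 230.4, 179 and 218 CPM in CD41pos WT, 258, 262 and 237 CPM in CD41pos KO, 303, 226 and 234 CPM in CD41neg WT and 193, 208 and 193 CPM in CD41neg KO, and passed in neither gate. Xbp1, a transcription factor of the unfolded protein response and of plasma cells, fell in CD41neg KO from 378 to 167 CPM (-1.18 ± 0.24, adjusted p = 0.0146), with -0.12 ± 0.23 in CD41pos and a difference of 1.05 ± 0.33.

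Plasma cell genes such as Jchain and Derl3 were high in CD41neg WT 2 and WT 4. Jchain, the joining chain of secreted antibodies, stood at 2822, 276 and 2346 CPM in CD41neg WT, 95.1, 48.4 and 88.4 CPM in CD41neg KO, 581, 79.3 and 471 CPM in CD41pos WT and 41.1, 11.7 and 10.1 CPM in CD41pos KO. It fell in both gates, by -4.17 ± 0.92 in CD41pos and -4.55 ± 0.93 in CD41neg (edgeR adjusted p = 0.0121 and 0.0156). The difference of Jchain was 0.39 ± 1.14, with an interval of -2.09 to 2.87. Derl3, an ER degradation factor of secretory cells, stood at 57.3, 4.81 and 35.6 CPM in CD41neg WT and at most 9.21 CPM in the other libraries, fell in CD41neg KO (-5.11 ± 0.75, edgeR adjusted p = 0.0043), and its difference was 3.57 ± 0.93 with all libraries and 0.85 without the low-numbered WT libraries. The 14 B cell and plasma cell genes in the table summed to 3908, 598 and 3063 CPM in CD41neg WT, 255 to 438 CPM in CD41neg KO, 370.3 to 981 CPM in CD41pos WT and 332 to 399.8 CPM in CD41pos KO. Of these 14, 12 had a difference above 0, with a median of 1.04, and 3 fell in CD41pos KO and 7 in CD41neg KO, against 7.27% and 3.97% of all genes. Without the low-numbered WT libraries 8 of the 14 were above 0 with a median of 0.0047, and 0 fell in CD41pos KO and 2 in CD41neg KO by edgeR. In that fit, which has 1 control in each gate, the ER list had 19 of 24 above 0 with a median of 0.33. The part of plasma cell RNA in the ER differences was not tested.

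For cytosolic ribosomal protein genes the sign of the difference turned with the choice of control libraries. None of the 76 had a difference above 0 with all libraries (median -0.29), whereas 75 were above 0 without WT 3 of both gates (median 0.18). Without the low-numbered WT libraries, none was above 0 and 73 were called lower. Their mean log2 CPM was 9.07 in CD41pos WT 3 and 7.95 to 8.65 in the other 11 libraries. None of them was called in either gate in the fit of 4 group means. In CD41pos KO 7 fell under upper-quartile scaling and 31 fell with a term for the low-numbered WT libraries. Under DESeq2 size factors, and with that term, 2 of the 76 differences were above 0.

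**Figure D5:**
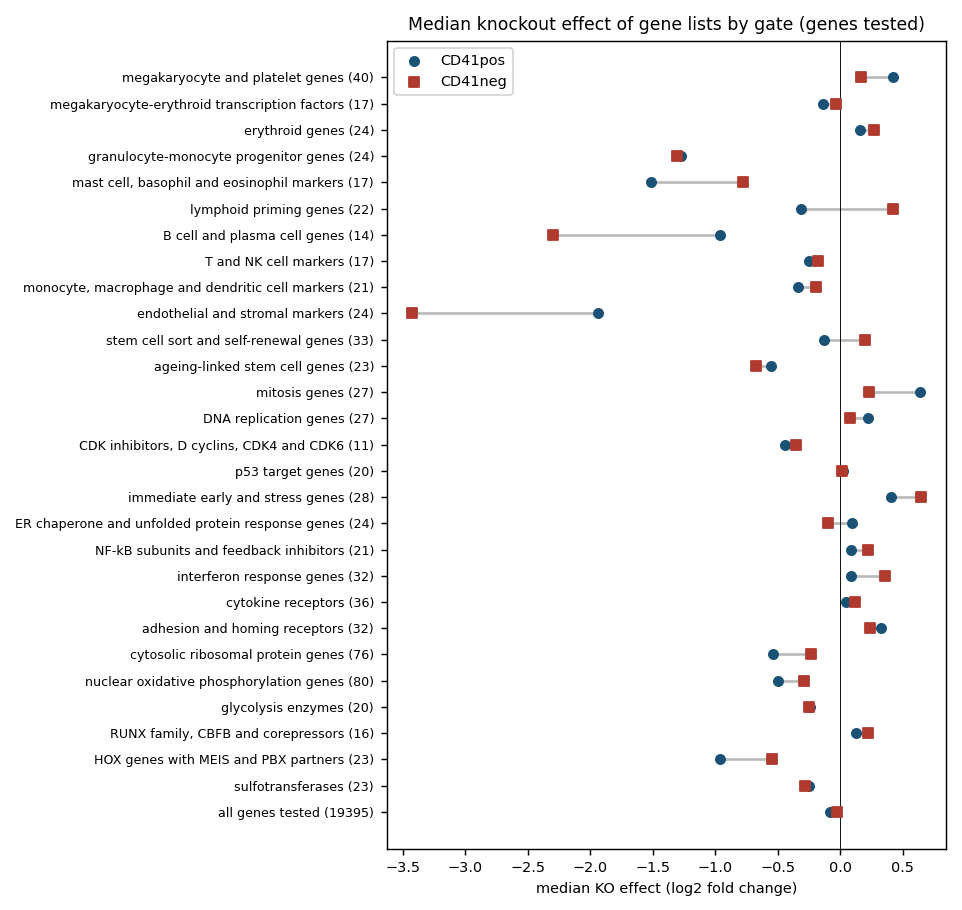
Median KO effect (log2 fold change, x axis) of each gene list, with the number of genes tested in brackets, in CD41pos (blue circles) and CD41neg (red squares); the bottom line gives all 19395 tested genes. The widest gaps are those of B cell and plasma cell genes and of endothelial and stromal markers, which lie lower in CD41neg; for B cell and plasma cell genes the order turned without the low-numbered WT libraries, with medians of -1.06 in CD41pos and -0.47 in CD41neg. Mitosis genes lie at 0.64 in CD41pos and 0.23 in CD41neg.

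Of 33 stem cell sort and self-renewal genes, 10 had a difference above 0 and 5 an unadjusted p under 0.05, all below 0: Vldlr, Erg, Cd9, Gata2 and Cd27. Without the low-numbered WT libraries 15 of the 33 were above 0, with a median of -0.08 against -0.14 with all libraries. Vldlr, a lipoprotein receptor, rose in CD41neg KO from 9.72 to 34.8 CPM (1.84 ± 0.38, edgeR adjusted p = 0.0172) and changed by 0.20 ± 0.37 in CD41pos. Gata2, a transcription factor of HSC maintenance, stood at 709, 680.4 and 632 CPM in CD41pos WT and 537, 546 and 563 CPM in CD41pos KO and passed in neither gate (-0.30 ± 0.13 and 0.10 ± 0.13). Of 17 megakaryocyte-erythroid transcription factors, 3 rose in CD41pos KO (9.79% of all genes), none passed in CD41neg, and 13 had an interval of the difference within -1 to 1; Gata1 had a difference of 0.38 ± 0.28. Of 24 granulocyte-monocyte progenitor genes, 1 rose and 9 fell in CD41pos KO (9.79% and 7.27% of all genes) and 7 fell in CD41neg KO (3.97%), with medians of -1.27 and -1.30 and no unadjusted p under 0.05 for the difference.

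Prss34, a serine protease of basophils, stood at 316, 128 and 379 CPM in CD41pos WT and 314, 59.5 and 350.0 CPM in CD41neg WT, and between 0.323 and 0.774 CPM in all KO libraries. It fell in both gates (-8.75 ± 0.76 and -8.68 ± 0.76, edgeR adjusted p = 0.000466 and 0.000409), and the difference of -0.07 ± 0.90 had an interval of -2.03 to 1.88, too wide to bound the difference at log2 1. Of 17 mast cell, basophil and eosinophil markers tested, 2 rose and 5 fell in CD41pos KO (9.79% and 7.27% of all genes) and 1 rose and 5 fell in CD41neg KO (3.85% and 3.97%). Of the 17, 13 had a difference above 0, with a median of 0.55. The 2 with an unadjusted p under 0.05 were both below 0. Of the 20 markers listed, 9 in CD41pos KO and 6 in CD41neg KO were under 1 CPM in all libraries of the group. The counts were 2 in CD41pos WT and 3 in CD41neg WT. Interferon response genes, of interest after poly(I:C), had 5 of 32 differences above 0 (median -0.28) and none with an unadjusted p under 0.05. The direction turned without the low-numbered WT libraries, where 23 of 32 were above 0 with a median of 0.35 and 4 were called higher. In CD41pos KO 1 rose and 2 fell, against 9.79% and 7.27% of all genes, and in CD41neg KO 2 rose and 1 fell, against 3.85% and 3.97%.

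The family of Hs3st1 had 23 sulfotransferases tested. Besides Hs3st1, Chst1, a keratan sulfate sulfotransferase, rose in CD41pos KO (3.20 ± 0.46, edgeR adjusted p = 0.00271) and in CD41neg KO (2.52 ± 0.44, adjusted p = 0.00904), with a difference of 0.68 ± 0.60. In the list 2 rose and 6 fell in CD41pos KO (9.79% and 7.27% of all genes), 1 rose and 3 fell in CD41neg KO (3.85% and 3.97%), and 11 had a difference above 0 (9314 of 19395 over all genes). Hs3st3b1, which also had an unadjusted p under 0.05, stood at means of 0.172 CPM in CD41pos WT, 0.456 CPM in CD41pos KO, 1.58 CPM in CD41neg WT and 0.197 CPM in CD41neg KO.

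St3gal2, Exoc3l2 and Cnr2 are examples of genes that rose in CD41pos KO with a smaller estimate in CD41neg, singled out after their values were seen. St3gal2, a sialyltransferase, stood at 86.1, 67.1 and 77.6 CPM in CD41pos WT and 156, 208 and 188 CPM in CD41pos KO, and at 57.4, 71.9 and 56.9 CPM in CD41neg WT and 80.2, 80.3 and 83.4 CPM in CD41neg KO. It rose in CD41pos KO (1.26 ± 0.15, edgeR adjusted p = 0.00169), its CD41neg change of 0.39 ± 0.14 did not pass (adjusted p = 0.112), and the difference was 0.87 ± 0.20 (adjusted p = 0.589). Exoc3l2, an exocyst-like protein, rose in CD41pos KO from 48.0 to 108 CPM, with a difference of 0.97 ± 0.24. Cnr2, the cannabinoid receptor of blood cells, rose in CD41pos KO from 25.7 to 108 CPM, with a difference of 1.45 ± 0.38. All 3 had an adjusted p above 0.05 for the difference.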

How the data were processed

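HSCs were sorted, RNA came from a miRNeasy Micro kit, and SMART-Seq v4 was used for the libraries, per the labels; this kit does not mark strand, so antisense genes cannot be told apart. The submitters' processing notes name FastQC 0.11.7, cutadapt 1.9.1, STAR 2.6.1e, featureCounts 1.6.2 and mm10, and the settings are unknown here. The authors deposited gene counts, which were tested unchanged, and a TPM table, which served for alternatives and to restore 27 gene names that had turned into dates in the count table. Gene names are those of the files. Genes were filtered with filterByExpr and scaled by TMM, and all 12 libraries entered 1 edgeR 4.0.16 quasi-likelihood fit of 4 group means (R 4.3.3), two-sided, adjusted by Benjamini-Hochberg at 0.05; 16474 genes were left out. SEs were derived from the F statistic. DESeq2 1.42.0 and limma 3.58.1 gave alternatives. A block by replicate number within genotype was run, called the animal label, although the labels do not name animals. A library-number block, a term for the low-numbered WT libraries, other scalings and filters and leaving out libraries were also run. The fit was tested on simulated data. The rule for named genes took Runx1, Runx2, Runx3 and Itga2b; the 12 highest and 12 lowest differences past the threshold, 6 opposite calls and 6 like effects, all with at least 10 CPM in 1 group; and up to 3 members of each list past the threshold. It left out predicted, small RNA, mitochondrial and Y-linked genes and pseudogenes. Since no difference passed, the 12 smallest p values on each side stood in, and other genes and list members named were chosen after their values were seen; some genes are not reported here. Members, rules and lists were chosen with earlier results of these data known. Intervals cover the spread between libraries.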

Additional observations from a re-analysis of the deposited data

How the results depend on the processing

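The count for the interaction of genotype and gate, 0 in the fit described, was 72 with DESeq2, 2 with no low-count filter, 1 with a replicate block by animal label (Thbs1, 4.67, adjusted p = 0.0197), 3 with sample quality weights, 3467 without the low-numbered WT libraries, 7 on log2(TPM + 1), 26 on log2(TPM + 0.1), and 0 to 2 when single libraries were left out. Of the 3467, 2328 were above 0; this fit has 1 control in each gate, and that lone library is taken to vary as the KO groups do. The single-library calls were Sema3a without CD41pos WT 3, Clu without CD41neg KO 1, and Hs3st1 and Pf4 without CD41neg KO 2. For KO against WT in CD41pos, 3309 became 5052 with DESeq2, 6456 with sample quality weights, 7639 without the low-numbered WT libraries, 2090 on log2(TPM + 0.1), 46 at a minimum log2 change of 1, 2154 with the libraries of that gate only, and 965 to 4076 when single libraries were left out, lowest without CD41pos KO 2, with moves of over 1.5 times without each of the CD41pos KO libraries. For KO against WT in CD41neg, 1517 became 3096 with DESeq2, 3395 with sample quality weights, 68 at a minimum log2 change of 1, 974 with a replicate block of the KO libraries (1010 with a term for the low-numbered WT libraries added), 3975 without WT 3 of both gates, and 341 to 3856 when single libraries were left out, lowest without CD41neg KO 3 and highest without CD41pos WT 3, with moves of over 1.5 times also without CD41neg WT 2, CD41neg WT 4 and each of the KO libraries of both gates. The cause of these changes was not tested. The interaction of Runx3, -0.12, became 0.00974 with sample quality weights and 0.00980 without WT 3 of both gates, and ran from -0.19 to 0.0219 when single libraries were left out, the highest without CD41pos WT 3, and the interaction of Itga2b, -0.41, became 0.26 without the low-numbered WT libraries.

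Replicate numbers did not pair the libraries throughout: same-numbered libraries of the gates deviated together in KO (correlations of 0.44, 0.62 and 0.48 over 11386 genes) but in WT at 0.11 for number 3 and -0.47 for number 4. A replicate block of the KO libraries or of library numbers called 0 differences, and within-gate effects could not be fitted in the blocks by animal label and library number. For the 24 genes of smallest p, 768 values under alternatives kept their sign, 44 of them past the threshold and 724 not. The 24 genes were chosen by p in the same libraries, so the kept signs are no independent support. The alternatives without WT 3 of both gates and with the added term were chosen after seeing the data. With 3 libraries per group the median 95% interval of the difference reached 0.88 to each side. These intervals are not adjusted for the number of genes tested. After adjustment no difference was told from 0 in this fit, large ones included. Examples are 3.42 for Hs3st1 and 4.98 for Adgrg6 (edgeR adjusted p = 0.155 and 0.141).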

Other observations

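The genes with the smallest p for the difference of the effects lay under 10 CPM. Adgrg6, an adhesion G protein-coupled receptor of Schwann cells and endothelium, stood at 0.550, 0.409 and 0.790 CPM in CD41pos WT and 4.30, 9.68 and 9.79 CPM in CD41pos KO, and at 2.14, 2.95 and 1.67 CPM in CD41neg WT and 1.41, 0.378 and 1.11 CPM in CD41neg KO. The groups did not overlap in either gate and lay in opposite order. Adgrg6 rose in CD41pos KO (3.75 ± 0.53, edgeR adjusted p = 0.0026), and its CD41neg change of -1.23 ± 0.48 did not pass (adjusted p = 0.131). Its difference was 4.98 ± 0.71 (adjusted p = 0.141, 1.25e-08 to 0.879 over the alternatives). Kif26b, an atypical kinesin of Wnt signalling, stood at 0.302, 0.136 and 0.202 CPM in CD41pos WT and 2.17, 3.28 and 2.35 CPM in CD41pos KO. In CD41neg it stood at 3.27, 4.04 and 4.32 CPM in WT and 3.59, 4.71 and 5.83 CPM in KO, with overlap. Kif26b rose in CD41pos KO (3.58 ± 0.37, adjusted p = 0.000842), and its difference was 3.30 ± 0.48 (adjusted p = 0.141, 7.07e-08 to 0.875 over the alternatives). In WT the level of Kif26b was higher in CD41neg, and the CD41pos KO libraries overlapped the CD41neg WT libraries only in their highest value.

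Slpi, a secreted inhibitor of leukocyte proteases, stood at 160.1, 28.9 and 114 CPM in CD41neg WT and 7.86, 1.96 and 7.46 CPM in CD41neg KO, and at 54.6, 36.9 and 58.1 CPM in CD41pos WT and 36.9, 23.7 and 27.8 CPM in CD41pos KO. It fell in CD41neg KO (-4.13 ± 0.62, edgeR adjusted p = 0.00456), its CD41pos change was -0.76 ± 0.54 (adjusted p = 0.336), and its difference was 3.37 ± 0.79 with all libraries and 2.09 without the low-numbered WT libraries. CD41neg WT 2 and WT 4 were high for Slpi and for the plasma cell genes described above; the part of plasma cell RNA in this difference was not tested.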
